A study of Mus musculus with 18 samples.

Results

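The Hoxa cluster genes described here are the 9 genes Hoxa2, Hoxa3, Hoxa4, Hoxa5, Hoxa6, Hoxa7, Hoxa9, Hoxa10 and Hoxa11, picked by symbol among the 53946 genes of the expression tables. RNA was sequenced in 12 mouse libraries, 4 groups of 3, all on the C57BL/6 strain. WT libraries hold hematopoietic stem and progenitor cells (HSPCs) sorted from bone marrow of C57BL/6 mice. NHD13 libraries hold marrow HSPCs of mice that carry the NUP98-HOXD13 fusion transgene and floxed Setd2 alleles (NHD13/Setd2 flox/flox), so these 2 groups differ in both. KO libraries hold marrow HSPCs labelled NHD13/Setd2 KO, in which Mx1-Cre was used to delete Setd2, and AML libraries hold C-Kit+ spleen cells labelled NHD13/Setd2 KO - AML, taken at the leukemia stage. AML and KO libraries therefore differ in organ, in the sorted population and in disease stage together. Whole-genome bisulfite sequencing covered 1 library for each of these groups, and H3K36me3 ChIP-seq covered C-Kit+ spleen cells labelled NHD13 - AML and NHD13/Setd2 KO - AML, 1 library each. Not given in the sources used here are age, the promoter that drives the transgene, the agent that induced Mx1-Cre, whether NHD13 mice received it, and whether replicates are separate animals. If they are not, the p-values reflect the spread between libraries alone, which may be technical.

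Hox genes encode homeodomain transcription factors that lie in 4 clusters in mammals, and in the embryo genes at the 3′ end of a cluster come on earlier and more anteriorly than those at the 5′ end. In blood, Hoxa genes of the middle of the cluster are active in stem and early progenitor cells and fall silent as cells mature. HOXA9 acts with the TALE cofactors MEIS1 and PBX, and its forced expression with Meis1 causes leukemia in mice. NUP98-HOX fusions are known to raise Hoxa genes, MLL and DOT1L to keep them active, and Polycomb complexes to silence them. SETD2 places the H3K36me3 mark, which lies over the bodies of transcribed genes.

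The cluster was placed on chromosome 6 of GRCm38.p6 (mm10) from RefSeq. The span taken for the cluster covers 105514 bases, holds 11 long noncoding genes beside the Hoxa genes and has Hoxa13 at its 5′ end. Hoxa2 lies at chr6:52162417-52164831, Hoxa4 at chr6:52189682-52191703, Hoxa5 at chr6:52201754-52204587 and Hoxa6 at chr6:52204858-52208672. Hoxa7 follows at chr6:52215623-52218573, Hoxa9 at chr6:52223097-52227370, Hoxa10 at chr6:52231197-52240854 and Hoxa11 at chr6:52242105-52245810. The Hoxa3 entry, chr6:52169059-52213067, covers 44009 bases and contains Hoxa4, Hoxa5 and Hoxa6, so a region over those 3 genes also lies in Hoxa3. The table of genes gives no exons, introns or UTRs, so the place of a region within a gene is given by coordinates and by the promoter window only.

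Promoter windows of 250 bases before to 50 bases after a start were found in RefSeq (GRCm38.p6) for 8 of the 9 members, 9 windows in all because Hoxa10 has 2, and Hoxa4 had no entry. Of these 5 are printed because the methylation results below turn on the first 4, and the window of Hoxa9, the most abundant member by count, is the contrast that no called region touched. All lie on the minus strand and are written 5′ to 3′ in lower case, with each CG dinucleotide, the site of methylation, in capitals. A CG reads the same on both strands. It occurs in 94.6% of the 32851 promoter windows, with a median of 7 per window.
Hoxa2, chr6:52164782-52165081: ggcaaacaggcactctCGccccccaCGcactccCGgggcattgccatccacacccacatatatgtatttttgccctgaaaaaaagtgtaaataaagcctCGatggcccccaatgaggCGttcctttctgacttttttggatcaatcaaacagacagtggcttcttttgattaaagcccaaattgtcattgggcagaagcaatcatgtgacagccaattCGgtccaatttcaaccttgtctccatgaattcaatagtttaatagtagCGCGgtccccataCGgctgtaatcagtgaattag
Hoxa5, chr6:52204538-52204837: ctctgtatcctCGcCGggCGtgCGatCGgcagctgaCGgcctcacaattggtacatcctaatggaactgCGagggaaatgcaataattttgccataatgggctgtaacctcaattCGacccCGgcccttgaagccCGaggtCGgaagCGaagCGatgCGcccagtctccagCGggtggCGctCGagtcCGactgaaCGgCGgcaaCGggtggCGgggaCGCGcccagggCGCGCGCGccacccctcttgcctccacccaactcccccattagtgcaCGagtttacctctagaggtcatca
Hoxa6, chr6:52208623-52208922: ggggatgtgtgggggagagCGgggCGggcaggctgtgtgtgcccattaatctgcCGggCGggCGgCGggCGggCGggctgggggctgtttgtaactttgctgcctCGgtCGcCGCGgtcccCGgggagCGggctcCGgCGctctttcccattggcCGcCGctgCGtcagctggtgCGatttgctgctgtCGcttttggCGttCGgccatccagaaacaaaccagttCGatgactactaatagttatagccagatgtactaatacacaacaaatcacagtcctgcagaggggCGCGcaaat
Hoxa10, chr6:52240805-52241104: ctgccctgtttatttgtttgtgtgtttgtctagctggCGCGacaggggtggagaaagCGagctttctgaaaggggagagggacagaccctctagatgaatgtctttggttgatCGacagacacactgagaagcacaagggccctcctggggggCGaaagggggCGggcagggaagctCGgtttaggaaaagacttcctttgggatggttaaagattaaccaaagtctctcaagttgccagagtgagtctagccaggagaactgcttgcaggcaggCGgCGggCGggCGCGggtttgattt
Hoxa9, chr6:52227321-52227620: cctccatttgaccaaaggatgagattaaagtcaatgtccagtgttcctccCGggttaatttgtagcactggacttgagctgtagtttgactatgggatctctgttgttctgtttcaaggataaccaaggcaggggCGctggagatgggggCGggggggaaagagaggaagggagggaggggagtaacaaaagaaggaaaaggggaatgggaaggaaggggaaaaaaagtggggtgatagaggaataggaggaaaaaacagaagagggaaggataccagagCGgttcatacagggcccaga
The Hoxa5 and Hoxa6 windows hold 29 and 26 CGs, and 12.9% and 16.9% of all windows hold at least as many. Hoxa10 and Hoxa2 hold 12 and 9 CGs, matched or passed by 39.6% and 45.8% of windows. Hoxa9 holds 4, a number that 68.6% of windows reach.

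Total counts ran from 18673704 to 28127686 per library, and counts of replicates differed by 1.91 to 27.1 times counting noise (chi-square per degree of freedom), most between WT 1 and the other 2 WT libraries. Reads of Setd2 did not check the KO label: the mean was 33.5 CPM in NHD13 and 32.4 in KO (log2 -0.05 ± 0.08 SE, edgeR adjusted p = 0.685), and counts over the whole gene need not show a deletion of part of it. The group is therefore called the KO-labelled group. Mouse Hoxd13 had 0 to 2 counts per library, so its counts do not show the transgene. Xist had 1336 to 5247 counts in WT and NHD13 libraries and 0 to 2 in KO-labelled and AML libraries, while the Y-linked Eif2s3y had 0 or 1 against 1206 to 1827. The KO label and the sex of the mice cannot be told apart in these libraries. The summed level of 9 stem and progenitor markers was 762 to 780 CPM in WT, 95 to 101 in NHD13, 350 to 365 in KO-labelled and 573 to 593 in AML libraries, and none of the 9 was at 0 in a group. All 9 fell in NHD13 against WT and all 9 rose in the KO-labelled group against NHD13. A list of 10 neutrophil markers summed to 26310 to 29937, 137181 to 158400, 52279 to 55878 and 23017 to 23437 CPM in the same order. In AML against KO the direction of single markers was mixed. Of the 10 neutrophil markers 6 rose and 4 fell (median log2 0.78), and of the 9 stem and progenitor markers 4 rose and 3 fell. Among all tested genes 42.8% rose and 39.5% fell there. The part of these shifts in the Hoxa results was not tested. In these bulk libraries, fewer cells of a type and less RNA per cell cannot be told apart.

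The amount of Hoxa RNA rose from WT to AML, and its make-up changed in AML. To compare genes, levels are given as FPKM, reads scaled to gene length and library total. Summed over the 9 genes, the FPKM level was 23.9 to 26.8 in WT libraries, 39.9 to 43.6 in NHD13, 72.4 to 75.1 in KO-labelled and 137 to 143 in AML libraries. The 4 ranges did not overlap. Hoxa7, Hoxa9 and Hoxa10 made up 86.0% to 89.5% of that sum in WT, 89.0% to 90.5% in NHD13 and 89.8% to 90.9% in KO-labelled libraries, but 52.4% to 54.0% in AML libraries. Hoxa2 to Hoxa6 held 46.0% to 47.6% of the sum in AML and 8.98% to 14.0% elsewhere. These shares depend on the deposited gene lengths, 874 bases for Hoxa6 and 5580 for Hoxa9, whose RefSeq entry spans 4274 bases. In AML the means of Hoxa6 and Hoxa9 were 30.2 and 39.2 FPKM but 21.4 and 177 CPM.

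**Figure D1:**
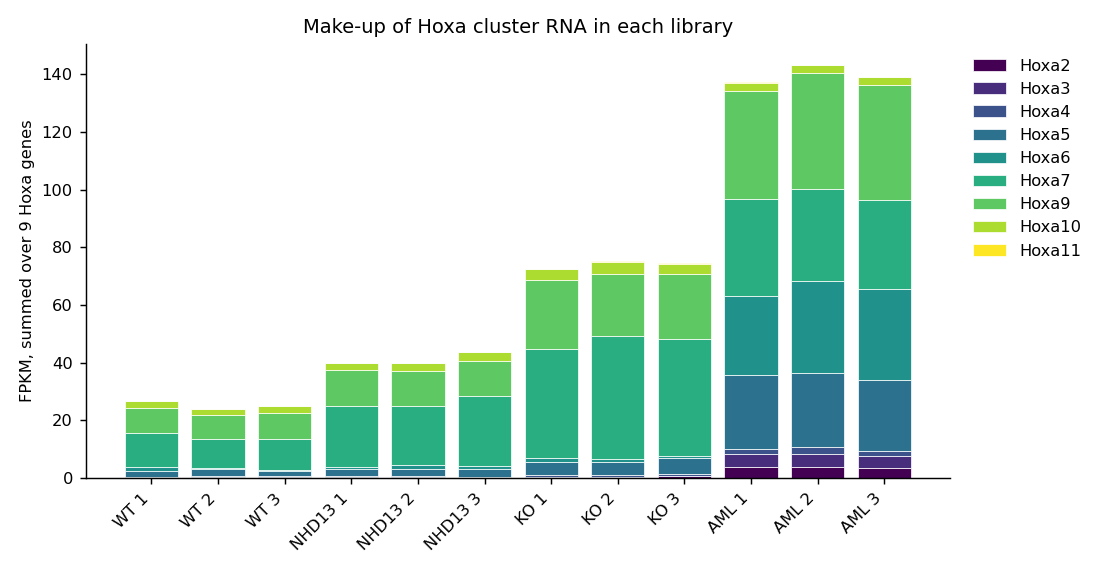
FPKM of the 9 Hoxa genes stacked by gene for each of the 12 libraries (y axis, summed FPKM; colours, genes from Hoxa2 at the bottom to Hoxa11 at the top). Sums climb from 23.9 to 26.8 in WT to 137 to 143 in AML, where the bands of Hoxa5 and Hoxa6 become wide.

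Among genes, Hoxa7 had the highest FPKM mean in WT (10.9 ± 0.88 SD, n = 3), NHD13 (22 ± 1.9) and KO-labelled libraries (40.3 ± 2.4). Hoxa9 was second in those groups with 8.72 ± 0.40, 12.3 ± 0.19 and 22.5 ± 1.1 FPKM, and its libraries did not reach the range of Hoxa7 in any of the 3. That order depends on the deposited lengths, 2876 bases for Hoxa7 and 5580 for Hoxa9. By mean CPM Hoxa9 was above Hoxa7, at 45.7 against 29.4 in WT, 84.5 against 77.6 in NHD13 and 135 against 125 in KO-labelled libraries. In NHD13 and KO-labelled libraries the CPM of both genes overlapped. Hoxa10 and Hoxa5 came next, with overlapping FPKM in WT (2.36 and 2.08) and NHD13 (2.69 and 2.58). Hoxa5 was above Hoxa10 in every KO-labelled library (means 4.73 and 3.92 FPKM). By mean CPM Hoxa10 was above Hoxa5, at 7.25 against 3.66 in WT, 10.8 against 5.93 in NHD13 and 13.8 against 9.58 in KO-labelled libraries. In AML the FPKM order was Hoxa9 (39.2 ± 1.5), Hoxa7 (32.2 ± 1.4), Hoxa6 (30.2 ± 2.6) and Hoxa5 (25.2 ± 0.66). Hoxa7 and Hoxa6 overlapped there, with 30.8 to 33.6 against 27.3 to 31.9 FPKM, and the other neighbours in the order did not. The levels of Hoxa3 (4.36 ± 0.17), Hoxa2 (3.62 ± 0.28), Hoxa10 (2.95 ± 0.13) and Hoxa4 (2.15 ± 0.20) followed, and Hoxa11 was near 0. This order too depends on the deposited lengths. By mean CPM in AML, Hoxa5 (38.3) was above Hoxa6 (21.4) and Hoxa10 (7.81) above Hoxa2 (5.20).

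Within a gene, levels are compared as CPM, counts scaled to a common library size with TMM factors, and changes are log2 fold changes with their standard error from edgeR's quasi-likelihood test, with p adjusted by the Benjamini-Hochberg method over 16233 tested genes and a threshold of 0.05. Of the 9 members, 8 passed the filter on low counts. The filter asks for a level over 0.443 CPM in at least 3 of the 12 libraries, and Hoxa11 had none over it. Hoxa2 had 1 WT, 0 NHD13, 2 KO-labelled and 3 AML libraries over it.

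**Figure D2:**
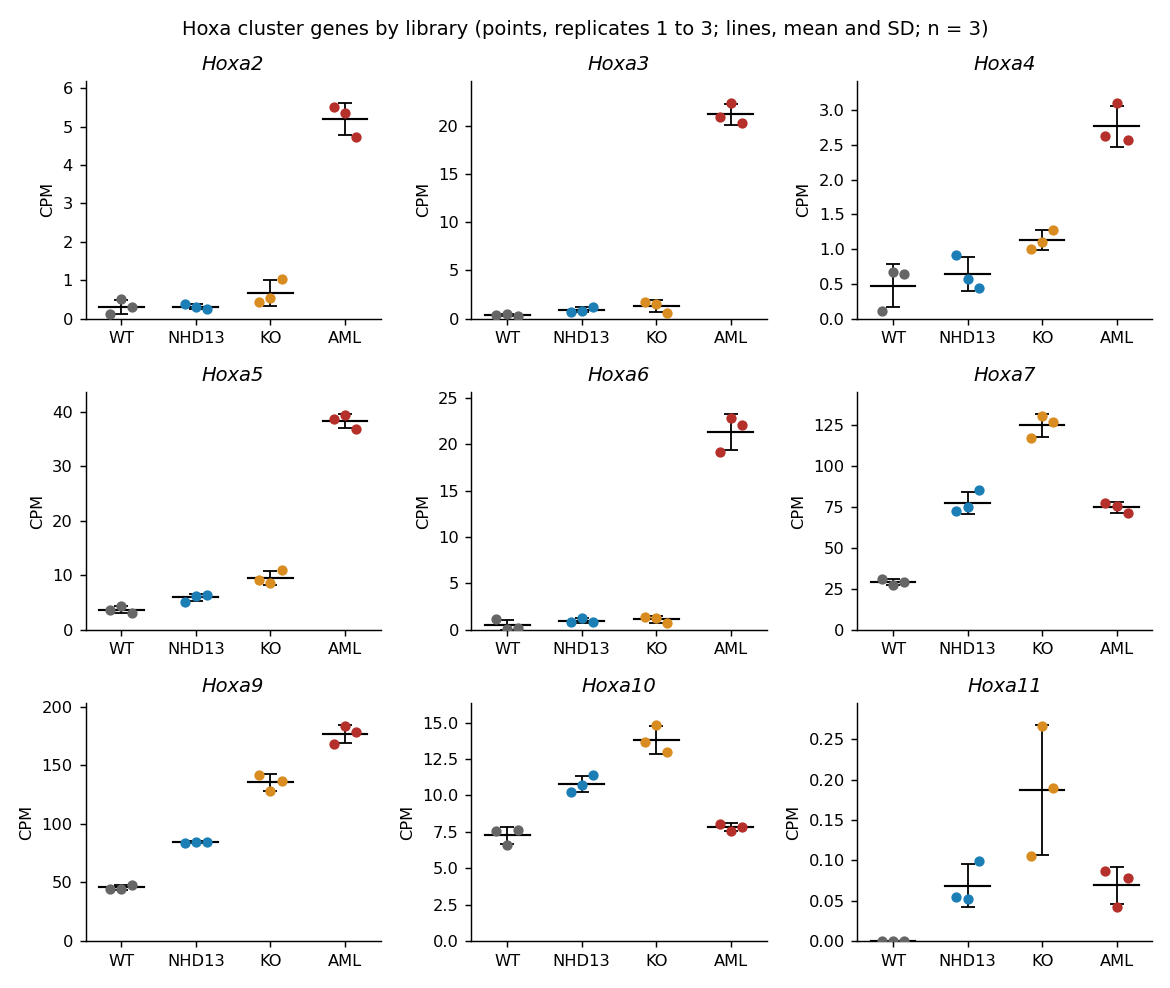
TMM-scaled CPM of each Hoxa gene (y axes, linear and separate for each gene) in WT, NHD13, KO-labelled and AML libraries; points are the 3 libraries and lines the mean and SD. Hoxa2 to Hoxa6 stand highest in AML, Hoxa9 climbs over all 4 groups, and Hoxa7 and Hoxa10 are highest in the KO-labelled group.

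In NHD13 against WT HSPCs, 5 of the 8 tested members rose and none fell, while 25.3% of all tested genes rose and 28.7% fell. The members that rose were Hoxa3, Hoxa5, Hoxa7, Hoxa9 and Hoxa10. Their folds ran from 1.49 for Hoxa10 to 2.64 for Hoxa7. The median log2 change over the 8 tested members was 0.79, beside -0.04 over all tested genes. With scaling by library totals alone only Hoxa7 and Hoxa9 still passed, and the median over all genes was then -0.42.

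Hoxa7, one of the most abundant members, had 31.3, 27.6 and 29.3 CPM in the WT libraries and 72.7, 74.8 and 85.3 CPM in NHD13. All NHD13 libraries lay above all WT libraries, with a log2 change of 1.40 ± 0.08 (adjusted p = 1.80e-11, edgeR). Hoxa9, the leukemia-associated partner of Meis1, had 44.5, 44.3 and 48.2 CPM in WT and 83.9, 84.9 and 84.6 in NHD13. It too was separate between the groups, with a change of 0.89 ± 0.06 (edgeR adjusted p = 6.18e-10). Hoxa10, another factor of early blood progenitors, had 7.58, 6.56 and 7.61 CPM in WT and 10.3, 10.7 and 11.4 in NHD13 (0.57 ± 0.11, edgeR adjusted p = 2.80e-04). Again no libraries of the groups overlapped.

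Among the 3′ members, Hoxa5 had 3.67, 4.28 and 3.04 CPM in WT and 5.13, 6.29 and 6.38 in NHD13. The groups did not overlap and the change was 0.70 ± 0.15 (edgeR adjusted p = 6.00e-04). Hoxa3 went from 0.425, 0.457 and 0.257 CPM to 0.702, 0.839 and 1.24 (1.28 ± 0.41, edgeR adjusted p = 0.0127). Its call rests on few reads and was lost without NHD13 replicate 3 (1.02). Hoxa2 (0.05 ± 0.53), Hoxa4 (0.46 ± 0.46) and Hoxa6 (0.97 ± 0.55) did not pass, with overlapping groups. Hoxa6 had 1.12 CPM in WT 1 against 0.125 and 0.214 in the other WT libraries, and without WT replicate 1 its change was 2.51 and passed the test.

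The KO-labelled group and NHD13 share the transgene and differ in the Setd2 label, and also in the sex of the mice, so a difference between them cannot be assigned to the Setd2 deletion. Here 4 of the 8 tested members rose and none fell, while 20.6% of tested genes rose and 20.3% fell. Hoxa5, Hoxa7, Hoxa9 and Hoxa10 rose, by 1.28-fold for Hoxa10 and by about 1.6-fold for each of the other 3. The median log2 change was 0.68 over the 8 tested members and 0.02 over all tested genes. Each of these genes rose also with library totals, where the median over all genes was 0.21.

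Hoxa7 reached 117, 131 and 127 CPM in the KO-labelled libraries (0.69 ± 0.07 on the log2 scale against NHD13, edgeR adjusted p = 3.73e-07). Every KO-labelled library lay above every NHD13 library. Hoxa9 stood at 142, 128 and 136 CPM, apart from NHD13 in the same way (0.68 ± 0.06, edgeR adjusted p = 3.25e-08). Hoxa5 stood at 9.12, 8.60 and 11.01 CPM (0.69 ± 0.14, edgeR adjusted p = 4.36e-04), and these libraries too were above NHD13. Hoxa10 had 13.6, 14.8 and 12.96 CPM, above NHD13 in every library (0.36 ± 0.11, edgeR adjusted p = 0.0120), a call lost without KO replicate 2 (0.31).

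The remaining 4 tested members are low in these groups. Hoxa2 had 0.378, 0.315 and 0.247 CPM in NHD13 and 0.422, 0.533 and 1.04 in the KO-labelled group. Its libraries did not overlap, but the change of 1.08 ± 0.47 did not pass (edgeR adjusted p = 0.0729); it passed without KO replicate 1 (1.29) and with library totals (1.26). Hoxa4 was also separate between the groups, with 0.918, 0.577 and 0.445 against 1.001, 1.103 and 1.281 CPM, and did not pass (0.81 ± 0.41, edgeR adjusted p = 0.121). Hoxa3 (0.45 ± 0.33) and Hoxa6 (0.18 ± 0.48) overlapped and did not pass, although Hoxa3 passed without KO replicate 3 (0.79).

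In AML against the KO-labelled group the largest rises were in the 3′ members. Hoxa2 to Hoxa6 rose by 2.44- to 19.1-fold, Hoxa9 rose by 1.31-fold, and Hoxa7 and Hoxa10 fell by 0.74 and 0.82 on the log2 scale. That is 6 of 8 tested members up and 2 down, while 42.8% of tested genes rose and 39.5% fell, so most genes were called in this comparison. The median log2 change was 1.65 over the 8 members and 0.07 over all tested genes. Changes in this comparison moved with gene length: the median was -1.05 over the 1807 tested genes shorter than 1000 bases and 0.67 over the 7168 genes of 4000 bases or more. The 9 erythroid markers summed to 2452 to 2574 CPM in KO-labelled and 69.7 to 78.5 in AML libraries, and their part in these changes was not tested. After a correction for length 7 of the 8 members kept their direction and their call, and Hoxa9 stood at -0.11 and did not pass. With library totals, where the all-gene median was 0.49, no member changed direction.

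Hoxa3 went from 1.74, 1.52 and 0.570 CPM in the KO-labelled libraries to 20.9, 22.4 and 20.3 in AML, a 16.5-fold rise (95% interval 11.9 to 22.9, edgeR adjusted p = 3.45e-12). Hoxa6 went from 1.42, 1.218 and 0.712 to 19.2, 22.9 and 22.04 CPM, 19.1-fold (11.6 to 31.3, edgeR adjusted p = 2.78e-08). In both genes the lowest AML library was over 10 times the highest library of any other group. Hoxa5, a factor known from lung and axial patterning, rose from 9.12, 8.60 and 11.01 to 38.7, 39.5 and 36.9 CPM, 4.01-fold (3.37 to 4.77, edgeR adjusted p = 1.03e-11). Hoxa2, known for hindbrain patterning, rose to 5.52, 5.37 and 4.72 CPM, 7.76-fold (4.95 to 12.2, edgeR adjusted p = 4.73e-08). Hoxa4 rose to 2.63, 3.11 and 2.58 CPM, 2.44-fold (1.51 to 3.94, edgeR adjusted p = 0.00146). AML and KO-labelled libraries did not overlap in any of the 5 genes.

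Hoxa9 had 168, 183 and 179 CPM in AML, all above the KO-labelled libraries (0.38 ± 0.06, edgeR adjusted p = 9.15e-06). Hoxa7 fell to 77.7, 75.8 and 71.2 CPM (-0.74 ± 0.07, edgeR adjusted p = 2.12e-08), and Hoxa10 to 8.06, 7.54 and 7.84 CPM (-0.82 ± 0.11, edgeR adjusted p = 1.21e-06). The fall took Hoxa7 into the NHD13 range (AML against NHD13 -0.05 ± 0.07, fold interval 0.867 to 1.07, edgeR adjusted p = 0.519) and Hoxa10 into the WT range (AML against WT 0.11 ± 0.11, fold interval 0.913 to 1.27, edgeR adjusted p = 0.383). With library totals Hoxa7 was higher in AML than in NHD13 (0.55), and Hoxa10 stood at 0.14 and did not pass (edgeR adjusted p = 0.273). Hoxa10 was higher in AML than in WT with library totals (0.32, edgeR adjusted p = 0.0161), with limma on log2(FPKM + 0.1) (0.31, adjusted p = 0.00682) and with limma on log2(FPKM + 1) (0.24, adjusted p = 0.00632).

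**Figure D3:**
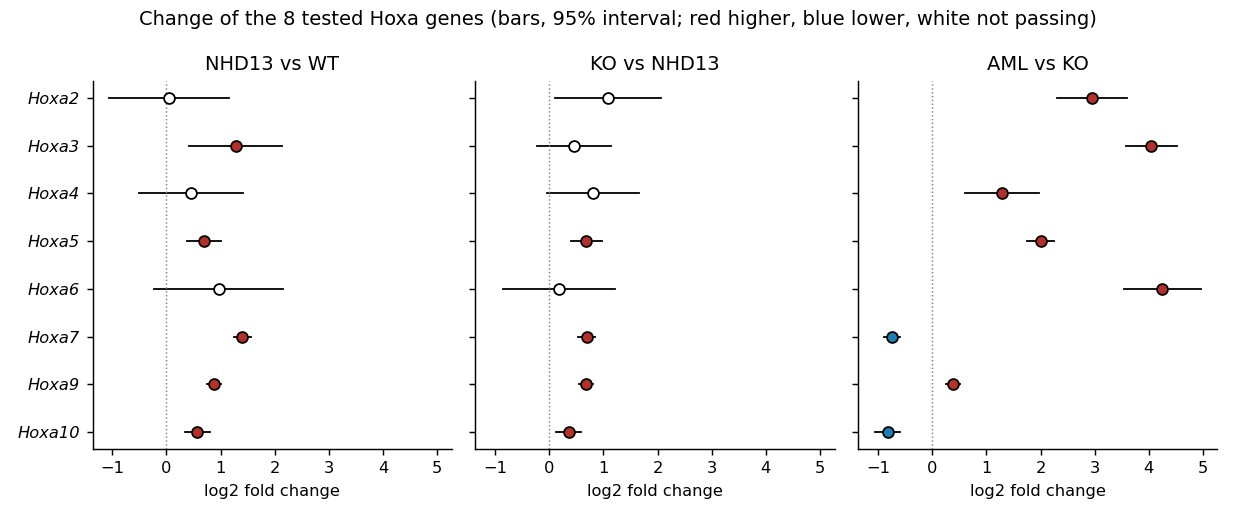
Log2 fold change with 95% interval of the 8 tested Hoxa genes in 3 comparisons (x axes; red, higher at an adjusted p below 0.05; blue, lower; white, not passing). Point estimates lie above 0 for NHD13 against WT and KO against NHD13, and in AML against KO they run from 4.25 for Hoxa6 to -0.82 for Hoxa10.

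Over the whole order of groups and with TMM scaling, Hoxa5 and Hoxa9 rose at each step, and their 4 groups did not overlap in CPM. The first step of Hoxa5 did not pass with library totals (0.31, edgeR adjusted p = 0.0696), with limma on log2(FPKM + 0.1) (0.30, adjusted p = 0.0520) or with limma on log2(FPKM + 1) (0.22, adjusted p = 0.0664). On the FPKM scale its WT and NHD13 libraries overlapped, with 2.39 in WT 2 and 2.28 in NHD13 1. The last step of Hoxa9 did not pass under the length correction. Hoxa7 and Hoxa10 had the order KO-labelled above NHD13 above WT, with AML libraries overlapping NHD13 for Hoxa7 and WT for Hoxa10 on the TMM scale. With TMM scaling and against WT, the KO-labelled group had 6 of 8 members higher (17.2% of tested genes were higher), and AML had 7 of 8 higher (41.7% of tested genes). Hoxa4 lost its call in the KO-labelled group against WT without WT replicate 1 (0.79) and without KO replicate 3 (1.18). In that comparison Hoxa6 did not pass (1.14, edgeR adjusted p = 0.107), and without WT replicate 1 it passed at 2.69 (edgeR adjusted p = 4.66e-05). Hoxa2 did not pass there (1.13), and it passed without WT replicate 2 (1.68) and without KO replicate 1 (1.35). Against NHD13, AML had 6 of 8 higher and Hoxa10 lower, beside 43.3% and 39.1% of tested genes. These comparisons share groups with those above.

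Hoxa11 was not tested. Its counts were 0, 0 and 0 in WT, 1, 1 and 2 in NHD13, 2, 7 and 4 in KO-labelled and 2, 1 and 2 in AML libraries. The sums were 0 (exact Poisson 95% interval 0 to 3.69), 4 (1.09 to 10.2), 13 (6.92 to 22.2) and 5 (1.62 to 11.7), intervals that cover counting error only.

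As a description of shape, the 5 genes nearest to Hoxa9 over the 12 libraries were Mars2, Clec2i, Arvcf, Slc22a23 and Pde3b. They come from 11274 tested genes with a mean of at least 1 CPM. The members, genes without a symbol and genes with provisional names, such as Gm and a number or names ending in Rik, were left out. The measure is the root mean square difference of log2 CPM centred on each gene's mean, 0.0887 for Mars2 and 0.209 to 0.303 for the others. Nearest to Hoxa10 were Arl6ip4 (0.115), Ccdc189, Aplf, Bora and Gpt (0.128). The nearest member was Hoxa7 for both, at 0.471 from Hoxa9 and 0.495 from Hoxa10.

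The 2 tested noncoding transcripts of the list overlap members, and both were higher in AML than in the KO-labelled group. Hoxaas2, a noncoding gene that overlaps the end of Hoxa3, went from 0.135 CPM in NHD13 to 0.396 in KO-labelled and 4.27 in AML libraries, with log2 changes of 1.51 and 3.38. Hoxaas3, which overlaps Hoxa5 and Hoxa6, rose by 1.23 in AML against KO. No source used here says whether strand was used in counting, so reads of these transcripts and of the Hoxa genes they overlap cannot be told apart. Hoxa13, Hottip and Mir196b had 0 or 1 count per library. All 5 tested genes that flank the cluster fell in AML against KO with TMM scaling, namely Jazf1 (log2 -2.31), Hibadh (-1.49), Tax1bp1 (-1.21), Snx10 (-0.46) and Skap2 (-0.20). With library totals Skap2 was higher in AML (0.21) and Snx10 did not pass (-0.05).

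Of 28 Hox genes of the other clusters, 8 were tested, and 7 of these rose in NHD13 against WT (25.3% of all tested genes rose) and 5 in KO-labelled against NHD13 (20.6%). In AML against KO 3 rose and 5 fell, beside 42.8% and 39.5% of all tested genes. Hoxb7 had 10, 39 and 19 counts in the KO-labelled libraries and 0 in all AML libraries, while Hoxb4 rose from 0.516 to 2.24 CPM (log2 2.14, edgeR adjusted p = 4.09e-06) and Hoxc4 by 0.81. Of 8 tested cofactors, 2 rose and 4 fell in NHD13, 3 rose and 1 fell in the KO-labelled group, and 5 rose and 2 fell in AML, where 3 rose and 3 fell with the length correction. The shares of all tested genes that fell in NHD13 against WT and in the KO-labelled group against NHD13 were 28.7% and 20.3%. Pbx3, whose protein binds DNA with HOXA9, rose from 3.76 CPM in WT to 28.2 in NHD13, 57.1 in KO-labelled and 76.0 in AML libraries. With the length correction the last of these steps did not pass (log2 -0.16, edgeR adjusted p = 0.0567). Pbx2 rose from 4.97 to 94.1 CPM in AML against KO, and Pbx4 fell there by 1.18 on the log2 scale. With the length correction Meis1 rose in the KO-labelled group against NHD13 (log2 3.29, edgeR adjusted p = 6.94e-14). It fell in AML against KO (-1.73, edgeR adjusted p = 2.89e-12), where Hoxa9 stood at -0.11. In NHD13 against WT the log2 changes of the 8 cofactors ran from -4.89 to 2.90 with TMM.

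Most genes known to keep Hoxa genes active rose in AML: of 13 tested activators, 10 rose and 2 fell against KO, with a median log2 change of 1.42 beside 0.07 over all genes, of which 42.8% rose and 39.5% fell. Dot1l, the H3K79 methyltransferase, rose from 20.2 to 160 CPM, Kmt2a, which encodes MLL, from 29.8 to 179 and Kat6a from 22.5 to 94.3, while Mllt3 fell from 22.6 to 6.07. Kmt2a, Dot1l and Kat6a are long genes (16670, 8705 and 9180 bases in the deposited FPKM table), as is Mllt3 (12004). With the length correction 9 activators rose and 3 fell, with a median of 0.65, and Dot1l (log2 2.19), Kmt2a (1.54) and Kat6a (1.24) were still higher in AML. In NHD13 against WT 2 activators rose and 6 fell, beside 25.3% and 28.7% of all tested genes. In the KO-labelled group against NHD13 5 rose and 2 fell, beside 20.6% and 20.3%. Kmt2a fell from 38.3 CPM in WT to 16.7 in NHD13 and rose to 29.8 in the KO-labelled group. Of 14 Polycomb genes, which act to silence Hox clusters, 10 also rose in AML against KO and 3 fell, beside the same 42.8% and 39.5% of all tested genes, with a median of 0.79. Cbx7 (2.81 to 16.0 CPM), Phc1 and Asxl1 rose most. With the length correction 8 rose and 5 fell, with a median of 0.38. Those that fell were Mtf2 (log2 -1.05), Eed (-0.60), Rnf2 (-0.53), Ezh2 (-0.43) and Phc2 (-0.39). Between NHD13 and WT 2 of the 14 rose, 3 fell and 9 did not pass, beside the 25.3% and 28.7% of all tested genes. Between the KO-labelled group and NHD13 2 rose, none fell and 12 did not pass, beside the 20.6% and 20.3%. With library totals 11 fell in NHD13 and 5 rose in the KO-labelled group. All 13 genes listed as Hoxa9-Meis1 targets fell in NHD13 against WT with TMM scaling and with library totals, and 12 with the length correction (median -1.75 with TMM), where Hoxa9 itself rose. Of these, 10 rose in the KO-labelled group against NHD13 (median 1.11), and 6 rose and 5 fell in AML against KO (median 0.25, and -0.10 with the length correction). With TMM, 28.7% of all tested genes fell in NHD13, 20.6% rose in the KO-labelled group, and 42.8% rose and 39.5% fell in AML. Pim1 (log2 3.70) and Erg (3.27) rose most in AML, and Trib2 fell by 4.95. Cd34 and Flt3 among the 13 are also stem and progenitor markers, and the part of cell makeup in these counts was not tested.

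DNA methylation was deposited as regions of difference between successive groups, 1 library each, so no replicate error exists, the tables hold no coverage and the values below are a description. Methylation is the mean fraction of methylated CpG sites. The authors' deposited table for WT and NHD13 held 14 regions in the cluster, 8 higher and 6 lower in NHD13. Between NHD13 and the KO-labelled library the authors' deposited table held 11, of which 4 were higher and 7 lower in KO. For KO-labelled and AML libraries 19 were listed in the authors' deposited table, 16 of them higher in AML. Over the genome, by the authors' deposited tables, 18.4%, 77.6% and 22.2% of regions were higher in the later group. Cluster regions hold many CpG sites, with medians of 32, 50 and 26 sites, and among all regions of the authors' deposited tables with at least so many sites 59.1%, 40.6% and 74.5% were higher. The cluster's 8 of 14, 4 of 11 and 16 of 19 lay near those shares.

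Regions over the 3′ members and over Hoxa11 gained methylation in NHD13. By the authors' deposited table every region over Hoxa2, Hoxa3, Hoxa4, Hoxa5, Hoxa6 and Hoxa11 was higher in NHD13 than in WT. Over Hoxa11 these were chr6:52243454-52243877, at 0.376 in WT and 0.618 in NHD13, and chr6:52244042-52244145, at 0.213 and 0.405. The Hoxa2 promoter window printed above lies whole in a region of 1905 bases with 169 CpG sites, chr6:52163357-52165261, which went from 0.352 to 0.845 in the authors' deposited table. The Hoxa6 window lies in chr6:52208187-52209646, 132 sites, which the authors' deposited table gives as 0.237 in WT and 0.826 in NHD13. For the CG-rich Hoxa5 window the region is chr6:52203894-52204889, 180 sites, at 0.775 and 0.969 in the authors' deposited table. In all, 6 of the 9 members overlapped a region higher in NHD13 and none a region lower in NHD13, beside 19.5% and 37.5% of protein-coding genes. Likewise 3 of the 9 member windows overlapped a region higher in NHD13, beside 3.24% of all RefSeq windows. These shares of genes and windows, and those given below for the later comparisons, are not matched for the number of CGs. Regions over Hoxa4, Hoxa5 and Hoxa6 also count for Hoxa3. Hoxa7, which rose in NHD13, lay between 2 regions that were lower there: chr6:52214242-52215425 at 0.649 in WT and 0.217 in NHD13, and chr6:52218933-52219470, just outside its promoter window, at 0.398 and 0.1002 in the authors' deposited table. In NHD13 the RNA of Hoxa5 was higher than in WT, and that of Hoxa2 and Hoxa6 did not pass the test.

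The Hoxa2 window and the Hoxa4 gene lost this methylation in the KO-labelled library and had it again in AML. A region of 3241 bases and 204 sites over the Hoxa2 window, chr6:52164081-52167321, stood at 0.867 in NHD13, 0.312 in the KO-labelled library and 0.944 in AML, by the authors' deposited tables. Over Hoxa4 the authors' deposited tables list chr6:52191126-52191602 at 0.345 in WT and 0.579 in NHD13, chr6:52191005-52191731 at 0.560 in NHD13 and 0.20 in KO, and chr6:52190869-52194333, 315 sites, at 0.197 in KO and 0.633 in AML. Elsewhere in Hoxa3, chr6:52176686-52177946 stood at 0.967 in NHD13 and 0.700 in KO, and chr6:52176774-52177981 at 0.701 in KO and 0.966 in AML. In the later comparisons no region lay over Hoxa5 or Hoxa6. Outward of the Hoxa6 start the authors' deposited table has chr6:52209440-52210668 at 0.472 in NHD13 and 0.835 in KO, the reverse direction. Over Hoxa11, chr6:52243868-52244198 stood at 0.408 in NHD13 and 0.648 in KO, and chr6:52243171-52244198 at 0.617 in KO and 0.895 in AML. The RNA of Hoxa2 and Hoxa4 was highest in AML, where the regions over the Hoxa2 window and Hoxa4 were again high. At the Hoxa10 window printed above a short region, chr6:52240817-52241067, went from 0.240 in KO to 0.483 in AML in the authors' deposited table. Hoxa10 RNA fell in that comparison. The other Hoxa10 window, chr6:52234890-52235189 with 21 CGs, overlapped no region in any comparison. In all, 1 window of 9 lay over a region lower in KO and 2 over a region higher in AML, beside 2.46% and 7.83% of all windows. Over whole genes, 3 of 9 members overlapped a region lower in KO and 5 a region higher in AML, beside 18.8% and 31.2% of protein-coding genes. No region of the authors' deposited tables lay over Hoxa7 or Hoxa9 in any comparison, so the Hoxa9 window printed above has no value to give. Whether methylation bears on the RNA of these genes was not tested.

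**Figure D4:**
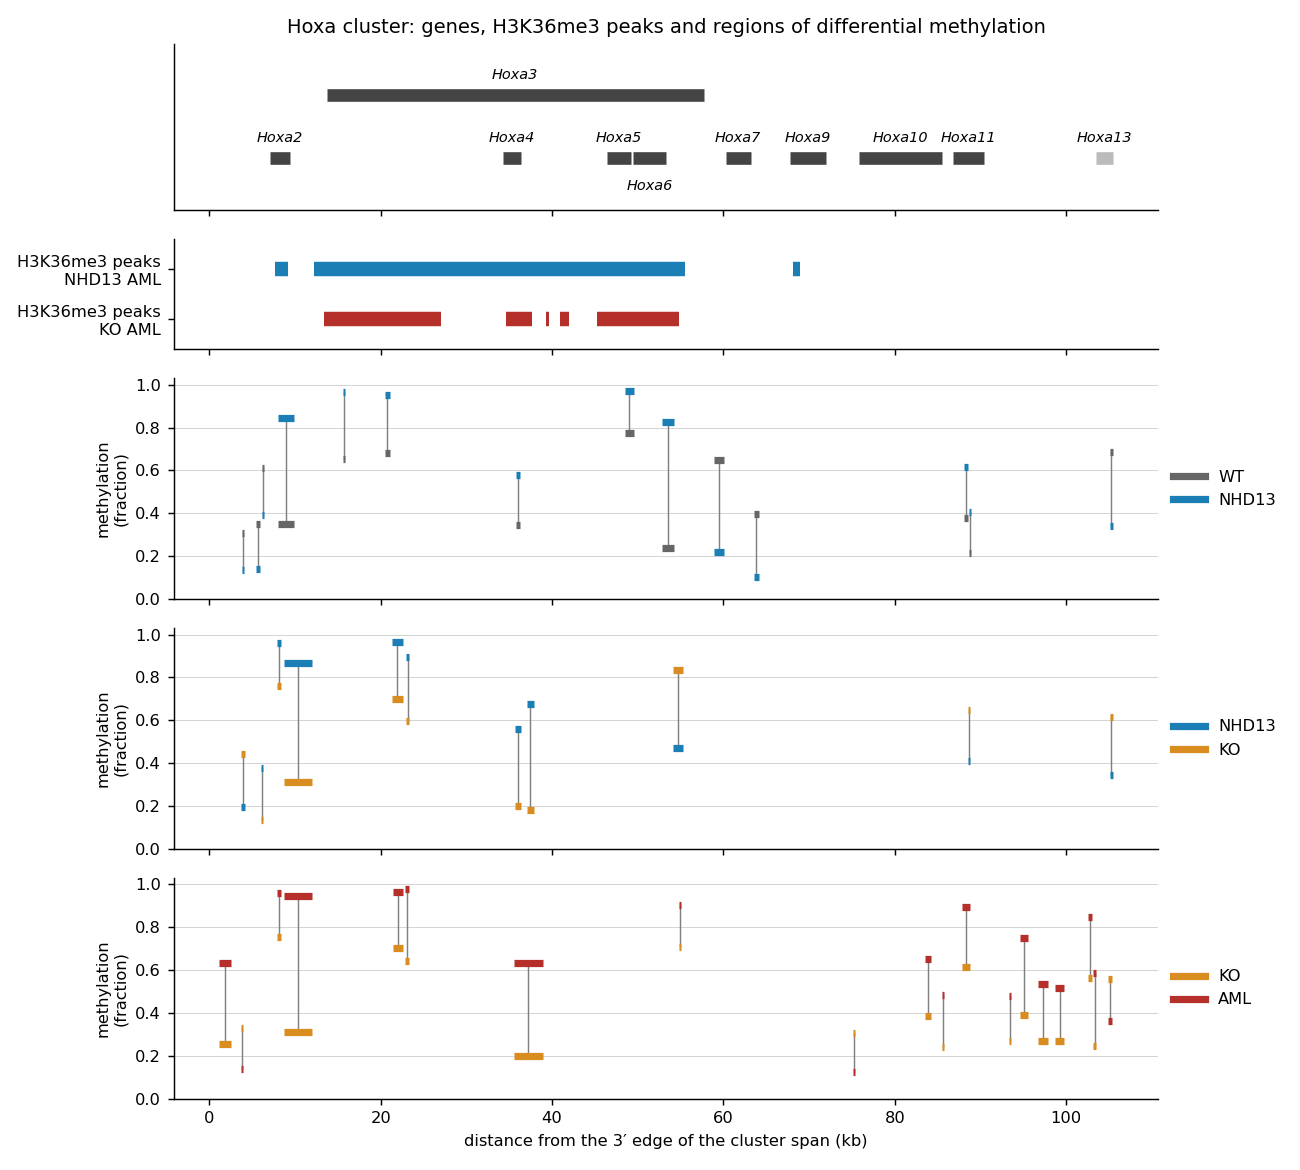
Map of the cluster by distance from the 3′ edge of the span (x axis, kb): members in dark grey with Hoxa13 in light grey, H3K36me3 peaks of both leukemia libraries, and the methylation fraction (y axes) of each region in the earlier and the later library, joined by a line; the shortest marks are widened to stay visible. Peaks lie over Hoxa2 to Hoxa6 and part of Hoxa9 in NHD13 AML and over Hoxa3 to Hoxa6 in KO AML, and the region at the Hoxa2 start goes from 0.867 in NHD13 to 0.312 in KO and 0.944 in AML.

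H3K36me3 peaks in both leukemia libraries lay over the 3′ members and not over Hoxa7, Hoxa10 or Hoxa11. Fold enrichment and scores are the authors' own values for each peak, from 1 library each. In the NHD13 AML library 3 peaks covered 43.2% of the cluster, and the longest, 43304 bases at chr6:52167559-52210862, took in Hoxa4, Hoxa5 and Hoxa6 and nearly all of Hoxa3 with a fold enrichment of 6.77. It was longer than 98.6% of the 30953 peaks of that library. A peak of 1469 bases lay over Hoxa2 (60.8% of the gene, fold 5.22) and 1 of 759 bases over Hoxa9 (17.8% of the gene, fold 3.81).

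In the KO AML library 5 peaks covered 26.5% of the cluster. The 2 longest, 13679 bases over Hoxa3 and 9659 bases over Hoxa5 and Hoxa6, were longer than 99.6% and 99.0% of its 16902 peaks, with fold enrichments of 5.50 and 6.29. Hoxa5 and Hoxa6 were covered in full in both libraries, Hoxa4 at 100% in NHD13 AML and 87.4% in KO AML, and Hoxa3 at 95% and 62.6%. Hoxa2 and Hoxa9 had no peak in KO AML. Peaks thus lay over 6 of the 9 members in NHD13 AML and 4 in KO AML, while 45.4% and 28.3% of protein-coding genes had one. At a −log10 q of at least 5 each library kept 2 peaks in the cluster; Hoxa9 in NHD13 AML and Hoxa4 in KO AML then had none, which left 5 and 3 members with a peak. Over the genome the KO AML list was shorter in all, 28415626 bases in peaks against 193042873, beside 27916 against 45532 bases in the cluster. The lower cover of the cluster thus came with a lower cover of the genome, where the fall was larger. The sources used here give no depth or input for the ChIP libraries. The 4 members with a peak in KO AML, Hoxa3 to Hoxa6, were among the 5 whose RNA rose by over 2-fold in AML, and Hoxa9, with the most RNA, had none. RNA of NHD13 AML cells was not analysed here.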

How the data were processed

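The 18 samples were grouped by their titles, and all values start from files the authors deposited. The authors deposited raw gene counts and an FPKM table, which equals count per gene length and column total (largest relative difference 5.13e-15). The submitters' processing notes name HISAT2 2.0.5, HTSeq 0.9.1, Bismark 0.19.0, MACS2 2.1.1.20160309 and mm10. Per the file headers, the deposited region tables give methylation as a fraction, its difference as another fraction, a score and a number of CpG sites; their caller is not named there. Which side is which library was checked on identical regions of tables that share a library. The deposited peak lists give a fold enrichment ratio, a score and −log10 p and q for each broad peak.

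Counts were tested with edgeR 4.0.16 (R 4.3.3) over all 12 libraries in 1 model: TMM factors, filterByExpr (16233 genes kept), robust quasi-likelihood test with 8 residual degrees of freedom, Benjamini-Hochberg adjustment over all genes tested and a threshold of 0.05. The test was run on simulated data with known changes first. Members of other lists are named as examples, and not all of the largest changes are named. Regions and peaks count as in a gene, window or cluster from an overlap of 1 base, with coordinates and promoters from RefSeq (GRCm38.p6). Alternatives were other scalings, filters and tools (DESeq2 1.42.0, limma 3.58.1 on log2 of FPKM), a length correction, a replicate block and leaving out each library. Members and lists were chosen with earlier results of these data known.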

Additional observations from a re-analysis of the deposited data

How the results depend on the processing

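In NHD13 against WT the number of members called was 5, and 2 with library totals, with limma on log2(FPKM + 0.1) and with limma on log2(FPKM + 1); these scalings do not correct for composition. With library totals the median log2 change of all tested genes was -0.42 in NHD13 against WT, 0.21 in KO against NHD13 and 0.49 in AML against KO, and calls over all genes were 1729 higher and 8629 lower, 5480 and 2046, and 8395 and 5017, against 4112 and 4652, 3340 and 3295, and 6953 and 6415 with TMM. The other 5 comparisons kept their number of called members within 1.5 times under every alternative run, and leaving out a library gave 4 to 6 members called in NHD13 against WT, 3 to 5 in KO against NHD13, 8 in AML against KO, 5 to 7 in KO against WT and 7 in both AML against WT and AML against NHD13. Among values that passed the test in either setting, the sign changed for 3. Hoxa7 in AML against NHD13 was -0.05, and 0.55 with library totals, 0.18 with the length correction, 0.55 with limma on log2(FPKM + 0.1) and 0.53 with limma on log2(FPKM + 1). Hoxa10 in AML against NHD13 was -0.46, and 0.14, 0.13 and 0.10 with library totals and the 2 limma fits in that order. Hoxa9 in AML against KO was 0.38, and -0.11 with the length correction. Hoxa2 in NHD13 against WT was 0.05, and -0.33 with library totals, and passed in neither. Without a filter on low counts KO against WT called 9 members, Hoxa11 included. At a −log10 q of at least 5, peaks in the cluster went from 3 to 2 in NHD13 AML and from 5 to 2 in KO AML, and members with a peak from 6 to 5 and from 4 to 3. Replicate numbers did not pair the libraries (correlations of same-numbered deviations -0.09 to 0.11), and the replicate block called the same number of members, 5, 4 and 8 in the 3 main comparisons. Depth limits Hoxa2, Hoxa3, Hoxa4, Hoxa6 and Hoxa11 outside AML, where every library held under 2 CPM and single libraries moved calls.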
